A study of Mus musculus with 24 samples.

Results

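Fc gamma receptors are the proteins by which macrophages bind IgG antibodies, and the 5 genes described here are those of the mouse family and of its shared signalling chain. They are Fcgr1, the high-affinity activating receptor, Fcgr3 and Fcgr4, the activating receptors of lower affinity, Fcgr2b, the inhibitory receptor, and Fcer1g, the common gamma chain. They were found by matching gene IDs to symbols, and each matched 1 of the 47729 gene IDs of the deposited tables. All 5 passed the filter on low counts in every comparison below. The genes were chosen from values measured in these same samples, and the choice named the contrasts of groups and grades used here. Their values in those contrasts are therefore given as a description and support nothing. The side of the eye and the variation between animals of 1 group played no part in the choice.

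An activating Fc gamma receptor carries no signalling motif of its own. It pairs with the gamma chain, whose activation motif is phosphorylated by Src family kinases once antibody-coated material crosslinks the receptors, and Syk then carries the signal to engulfment and the oxidative burst. Fcgr2b holds an inhibitory motif that recruits the phosphatase SHIP1 and sets a threshold for the activating members. Microglia express the whole set, and the receptors are used to take up antibody-coated debris in nervous tissue.

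RNA was sequenced from microglia, the resident macrophages of the retina, sorted from 1 retina per library as CD11b+ cells that carry FCRLS and lack Ly6c, after a Percoll gradient, with 100 to 600 cells per retina. The first group was 12-month DBA/2J mice (Gpnmb-/- Tyrp1b-/-), an inbred strain with age-related pigmentary glaucoma, with 10 retinas of 5 animals. Each of these retinas has a grade in the labels: mild (3 retinas of 2 animals), moderate (4 of 3) or severe (3 of 2). The second was 6-month DBA/2J mice of the same genotype, labelled as early disease, with 1 retina from each of 5 animals. The reference was 12-month DBA/2J Gpnmb+ mice (Gpnmb+/+ Tyrp1b-/-), with 9 retinas of 5 animals. The Tyrp1 mutation is thus shared by all 3 groups, and no group was treated. The 6-month and Gpnmb+ groups differ in both age and genotype. Unless a retina is named, the counts of an animal's retinas were summed and n is the number of animals. Nothing in the labels says whether animals were handled on the same day.

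Library totals were 1706775 to 20081114 counts for 12-month DBA/2J, 12043911 to 17993059 for 6-month DBA/2J and 977886 to 14845311 for Gpnmb+ retinas. In Gpnmb+, 5 libraries stood apart with fewer than 10000 genes detected (lowest 3469), and they belong to animals 1, 2 and 3, while each DBA/2J library had at least 10703. Gpnmb had no count in any of the 15 DBA/2J retinas, but also none in 8 of the 9 Gpnmb+ retinas, so it does not check the labels. Of the 10 microglia markers 9 were present in every animal, with summed levels of 26400 to 38500 CPM in 12-month DBA/2J, 31300 to 34800 CPM in 6-month DBA/2J and 20000 to 33300 CPM in Gpnmb+ microglia. The other, Fcrls, the transcript of the protein used in the sort, was low at 0.136 to 81.9, 11.2 to 55.2 and 0 to 58.9 CPM in the same order of groups.

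In every group the gamma chain was the most abundant of the 5 transcripts and Fcgr4 the least, on the scale that allows genes to be compared, TPM (a share of all transcripts that takes transcript length into account). Fcer1g averaged 3300 ± 1110 TPM in 12-month DBA/2J, 2480 ± 214 TPM in 6-month DBA/2J and 2240 ± 333 TPM in Gpnmb+ microglia (SD, n = 5 each), which put it at place 21, 31 and 34 among all genes. Fcgr3 averaged 881 ± 123, 807 ± 71.6 and 565 ± 92.4 TPM in the 3 groups in that order. Fcgr2b averaged 775 ± 173, 481 ± 116 and 387 ± 200 TPM, and Fcgr1 averaged 427 ± 74.3, 294 ± 66.1 and 201 ± 63.1 TPM. Fcgr4 averaged 172 ± 60 TPM in 12-month DBA/2J, 38.5 ± 38.2 TPM in 6-month DBA/2J and 93.4 ± 85 TPM in Gpnmb+ microglia. Fcer1g stood above the other 4 genes in 15 of 15 animals. The neighbours Fcgr3 and Fcgr2b changed places in 1 of 5 12-month DBA/2J animals and 1 of 5 Gpnmb+ animals, and their ranges overlapped in these 2 groups. Gpnmb+ animal 2 had more Fcgr1 than Fcgr2b, and its Fcgr4 at 183.7 TPM was also above its Fcgr2b at 108 TPM. In another (animal 3) Fcgr4 at 183.6 TPM was above Fcgr1 at 126.3 TPM.

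**Figure D1:**
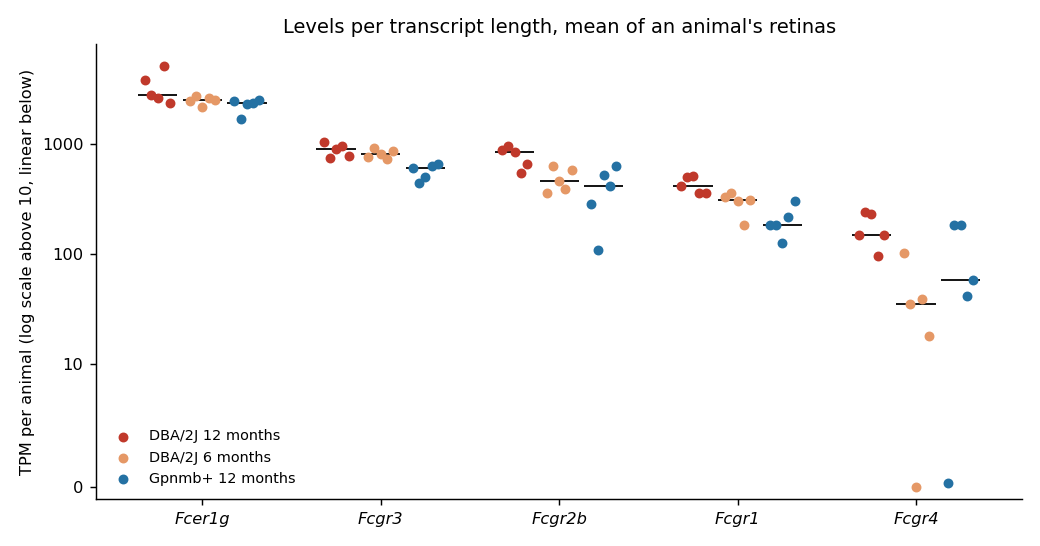
TPM of the 5 genes in each animal (points, mean of the animal's retinas) with the group median (line), by gene and group, on an axis that is logarithmic above 10 and linear below. Fcer1g lies between 1660 and 5049 TPM in all 15 animals, while Fcgr4 ranges from 0 to 238 TPM.

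The balance of activating to inhibitory receptor transcripts varied most between Gpnmb+ animals. The summed TPM of Fcgr1, Fcgr3 and Fcgr4 over that of Fcgr2b was 1.97 ± 0.395 in 12-month DBA/2J, 2.45 ± 0.501 in 6-month DBA/2J and 3.11 ± 2.47 in Gpnmb+ microglia (SD, n = 5 each). The last mean rests on Gpnmb+ animal 2, whose ratio was 7.46, and the other 4 animals lay between 1.58 and 2.73. The 3 groups overlapped. Fcgr3 over Fcgr2b was 1.19 ± 0.364, 1.73 ± 0.273 and 1.94 ± 1.26 in the same order of groups, and Fcer1g over the 3 activating receptors was 2.24 ± 0.794, 2.19 ± 0.309 and 2.61 ± 0.389.

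Fcgr1 lies at chr3:96282909-96293969 on the minus strand (GRCm38, the build that mm10 also names; gene ID ENSMUSG00000015947.10), away from the other 4, which share a stretch of chromosome 1. Its level was 553.5, 579.4, 526.7, 558.0 and 366.7 CPM (TMM-scaled counts scaled to 1e6) in the 5 animals of 12-month DBA/2J and 308.3, 349.3, 276.3, 225.2 and 292.7 CPM in 6-month DBA/2J animals. The Gpnmb+ animals had 278.1, 271.9, 194.5, 207.9 and 317.0 CPM. All 5 12-month DBA/2J animals were above all animals of both other groups, and the lowest of them, animal 5, was closer to the other groups than to its own. Means were 516.9 ± 86.0 CPM in 12-month DBA/2J, 290.4 ± 45.4 CPM in 6-month DBA/2J and 253.9 ± 51.3 CPM in Gpnmb+ microglia (SD, n = 5 each). The log2 fold change was 1.03 ± 0.21 (SE) against Gpnmb+ and 0.83 ± 0.21 against 6-month DBA/2J. Single retinas showed the same order, with 383.5 to 780.7 CPM of the library total in the 10 12-month DBA/2J retinas, 226.3 to 366.9 CPM in the 5 6-month retinas and 4.09 to 362.3 CPM in the 9 Gpnmb+ retinas. In bulk RNA, more cells with a transcript and more of it per cell cannot be told apart.

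Fcgr2b, the inhibitory receptor (chr1:170958617-170976547, minus strand, ENSMUSG00000026656.15), had 1032, 1044, 855.4, 796.2 and 594.8 CPM in 12-month DBA/2J animals and 293.5, 569.7, 403.0, 404.5 and 480.7 CPM in 6-month DBA/2J animals. It had 401.5, 135.2, 508.6, 385.6 and 569.8 CPM in Gpnmb+ animals. The lowest 12-month DBA/2J animal, again animal 5, was just above the highest animal of each other group. The log2 fold change was 1.11 ± 0.30 against Gpnmb+ and 1.01 ± 0.30 against 6-month DBA/2J, with means of 864.5 ± 186 CPM in 12-month DBA/2J, 430.3 ± 103 CPM in 6-month DBA/2J and 400.1 ± 167 CPM in Gpnmb+ microglia. This separation did not hold on every scale. Per retina, 12-month DBA/2J retinas had 570.2 to 1367 CPM and Gpnmb+ retinas 6.136 to 635.4 CPM, and in TPM per animal the 12-month DBA/2J animals had 540.7 to 960.3 TPM, against 108 to 620.8 TPM for Gpnmb+, so both overlap.

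Fcgr3, the activating receptor whose extracellular part is close to that of Fcgr2b (chr1:171051174-171064935, minus strand, ENSMUSG00000059498.13), had 1065, 697.7, 738.6, 1135 and 595.8 CPM in 12-month DBA/2J animals and 526.3, 690.7, 587.4, 597.8 and 610.4 CPM in 6-month DBA/2J animals. In Gpnmb+ animals it had 694.3, 502.4, 404.8, 490.4 and 518.8 CPM. In 12-month DBA/2J 4 of 5 animals were above all others, and animal 5 was within both other groups. The log2 fold change was 0.70 ± 0.21 against Gpnmb+ and 0.49 ± 0.21 against 6-month DBA/2J, with means of 846.4 ± 239, 602.5 ± 58.9 and 522.1 ± 106 CPM in 12-month DBA/2J, 6-month DBA/2J and Gpnmb+ microglia. In TPM, Fcgr3 did separate 12-month DBA/2J (740.1 to 1035 TPM) from Gpnmb+ animals (438 to 657.4 TPM), but not from 6-month DBA/2J (730.6 to 902.4 TPM). The lowest Gpnmb+ value, of animal 2, is a mean that takes in a right retina with 0 counts of Fcgr3. By retina the groups overlapped, with 587.4 to 1107 CPM in 12-month DBA/2J and 0 to 671.3 CPM in Gpnmb+.

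Because Fcgr2b and Fcgr3 are near copies in part, reads from the shared stretch cannot be given to 1 of them with certainty. Of the 1733 different 31-base words of the Fcgr3 transcripts, 13.4% also occur in Fcgr2b transcripts, and of the 5609 words of Fcgr2b 4.15% occur in Fcgr3. No other pair of the 5 genes shares a word of this length. With genes outside the 5, Fcgr2b shares 1.52% of its words and Fcgr4 1.06%. Fcgr2b also overlaps Gm38204 on the opposite strand, Fcgr3 holds Mir6546 and Fcgr4 overlaps Gm26110 on its own strand. Whether counting used strand is not given in the sources used here. The longest identical run of Fcgr2b and Fcgr3 is 129 bases of coding sequence, from exon 3 into exon 4 of both genes (chr1:170967980-170968081 and chr1:170966674-170966700 in Fcgr2b, chr1:171057691-171057792 and chr1:171054167-171054193 in Fcgr3, minus strand). It is printed from the GENCODE vM21 transcripts to show how long a read can match both genes, with nothing in capitals since no base differs.
Fcgr2b and Fcgr3 shared run: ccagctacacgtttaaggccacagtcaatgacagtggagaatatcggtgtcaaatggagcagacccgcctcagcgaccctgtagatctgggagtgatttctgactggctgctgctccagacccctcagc

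Fcgr4, an activating receptor (chr1:171018920-171029761, plus strand, ENSMUSG00000059089.4), had an SD near its mean in 6-month DBA/2J and Gpnmb+ animals. It had 144.0, 193.1, 158.8, 121.2 and 107.2 CPM in 12-month DBA/2J animals and 65.65, 24.67, 0, 29.21 and 11.85 CPM in 6-month DBA/2J animals. The Gpnmb+ animals had 0.2725, 194.6, 140.3, 29.91 and 41.92 CPM. Every 12-month DBA/2J animal was therefore above every 6-month animal in TMM-scaled CPM. The ages overlapped in TPM, with 96.17 at lowest in 12-month and 101.2 at highest in 6-month DBA/2J, and by retina, with 44.53 and 72.15 CPM. Of the Gpnmb+ animals 1 was above all 12-month DBA/2J animals, 1 lay among them and 3 lay below them. The log2 fold change was 2.46 ± 1.12 against 6-month DBA/2J (2.139 without 6-month animal 3, 3.173 without 6-month animal 1). Means were 144.9 ± 33.5 CPM in 12-month and 26.28 ± 24.8 CPM in 6-month DBA/2J. Against Gpnmb+ (81.4 ± 82.3 CPM) the log2 fold change was 0.83 ± 1.07, smaller than its own error. It was 0.513 without Gpnmb+ animal 1 and 1.444 without Gpnmb+ animal 2. The Gpnmb+ animals at 194.6 and 140.3 CPM are animals 2 and 3, which hold 3 of the 5 libraries with few genes. The rest of those libraries belong to animal 1, the lowest of the group at 0.2725 CPM. In animal 3 the library with 13533 genes had 153.7 CPM and that with 9958 genes had 114.8 CPM. In animal 2 the left retina had 260.1 CPM and the right none (0 of 977886 counts, which allows up to 3.07 CPM). The 6-month animal without Fcgr4 had a library of 12043911 counts, in which 0 counts allow up to 0.249 CPM.

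Fcer1g, the gamma chain (chr1:171229572-171234365, minus strand, ENSMUSG00000058715.11), had 1463, 1061, 841.1, 1801 and 697.1 CPM in 12-month DBA/2J animals and 655.1, 804.4, 613.2, 833.2 and 694.2 CPM in 6-month DBA/2J animals. In Gpnmb+ animals it had 1104, 508.2, 718.0, 699.9 and 771.4 CPM. In 12-month DBA/2J, animals 1 and 4 were above every Gpnmb+ animal and 4 were above every 6-month animal. Means were 1173 ± 455 CPM in 12-month DBA/2J, 720.0 ± 95.2 CPM in 6-month DBA/2J and 760.3 ± 216 CPM in Gpnmb+ microglia, and the log2 fold change was 0.63 ± 0.25 against Gpnmb+ and 0.70 ± 0.25 against 6-month DBA/2J. The left retina of 12-month DBA/2J animal 4 alone reached 3295 CPM of its library total of 1706775 counts, the smallest of the group.

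**Figure D2:**
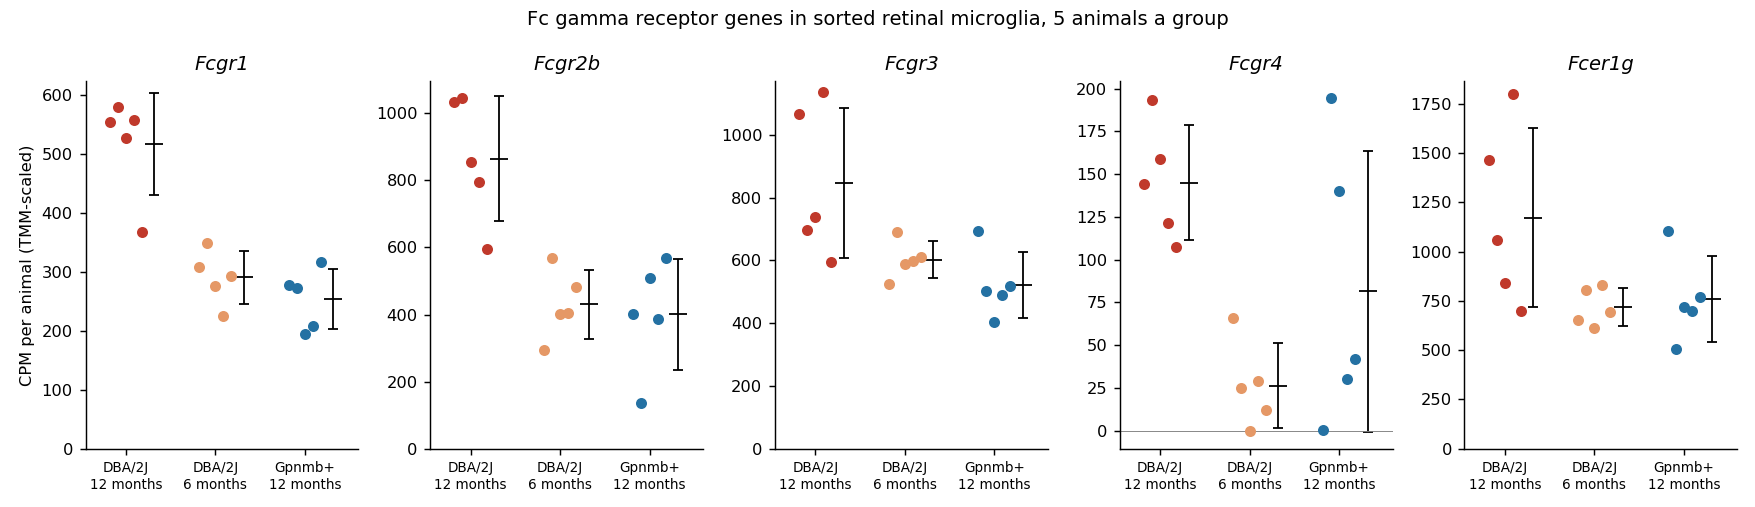
TMM-scaled CPM of the 5 genes in each of 15 animals (points), with the mean and SD of each group (line and bar), from 12-month DBA/2J at left to Gpnmb+ at right. Fcgr1 and Fcgr2b of 12-month DBA/2J lie above all other animals, while Fcgr4 in Gpnmb+ animals spans 0.2725 to 194.6 CPM.

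Across all genes, the fit of 15 animals called 0 of 12977 genes at an adjusted p under 0.05 (0% called) in 12-month DBA/2J against Gpnmb+ (edgeR's quasi-likelihood test, Benjamini-Hochberg). None of the 5 genes was called there, and Fcgr1, at place 2 by p, had an adjusted p of 0.313, equal to the smallest of that comparison. At an unadjusted p under 0.05, 676 genes passed. Of the 5 members 4 were among those that were higher, against 2.76% of all genes, and Fcgr4 was not. Fcgr1 and Fcgr2b were 2 of the genes in which every 12-month DBA/2J animal exceeded every Gpnmb+ animal, which holds for 0.832% of genes. The median log2 fold change over all genes was 0.05.

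Against 6-month DBA/2J, 0 of 12977 genes were called (0%), 474 had an unadjusted p under 0.05, and all 5 members were among the higher of these, which make up 2.1% of genes. In TMM-scaled CPM Fcgr1, Fcgr2b and Fcgr4 separated the ages without overlap, as 1.43% of genes did, while in TPM and by retina Fcgr2b and Fcgr4 overlapped. The count of 5 was 2 without 12-month DBA/2J animal 4, 3 without animal 1, and 3 with each retina as a replicate or with the larger retina only. Since the members were picked with these contrasts in view, their counts are not read against the shares. DESeq2, run as an alternative, called 108 genes against Gpnmb+ and 60 against 6-month DBA/2J, with Fcgr1 and Fcgr2b among them in both. The 2 comparisons share the 12-month DBA/2J animals. Without the 5 libraries of few genes, which leaves 3 Gpnmb+ animals, the log2 fold changes against Gpnmb+ were 0.995 for Fcgr1, 0.774 for Fcgr2b, 0.867 for Fcgr3, 0.965 for Fcgr4 and 0.706 for Fcer1g.

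In TMM-scaled CPM the 6-month DBA/2J and Gpnmb+ groups were close to each other for 4 of the 5 genes. This did not hold on every scale. In TPM, Fcgr3 was higher in every 6-month DBA/2J animal (730.6 to 902.4 TPM) than in every Gpnmb+ animal (438 to 657.4 TPM). By retina Fcgr3 overlapped, with 578.4 to 725.6 CPM in 6-month DBA/2J and 0 to 671.3 CPM in Gpnmb+. In 6-month DBA/2J against Gpnmb+ the log2 fold change was 0.19 ± 0.21 (SE) for Fcgr1, 0.10 ± 0.30 for Fcgr2b, 0.21 ± 0.20 for Fcgr3 and -0.08 ± 0.25 for Fcer1g. Fcgr4 was at -1.63 ± 1.09. None of the 5 genes had an unadjusted p under 0.05 in edgeR's quasi-likelihood test, a threshold that 3.77% of all genes (489) passed, and 0 genes (0%) were called after adjustment, against 57 with DESeq2. Errors of this size do not show that the groups are alike. Without the libraries of few genes, Fcgr2b was at -0.239 in this comparison.

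**Figure D3:**
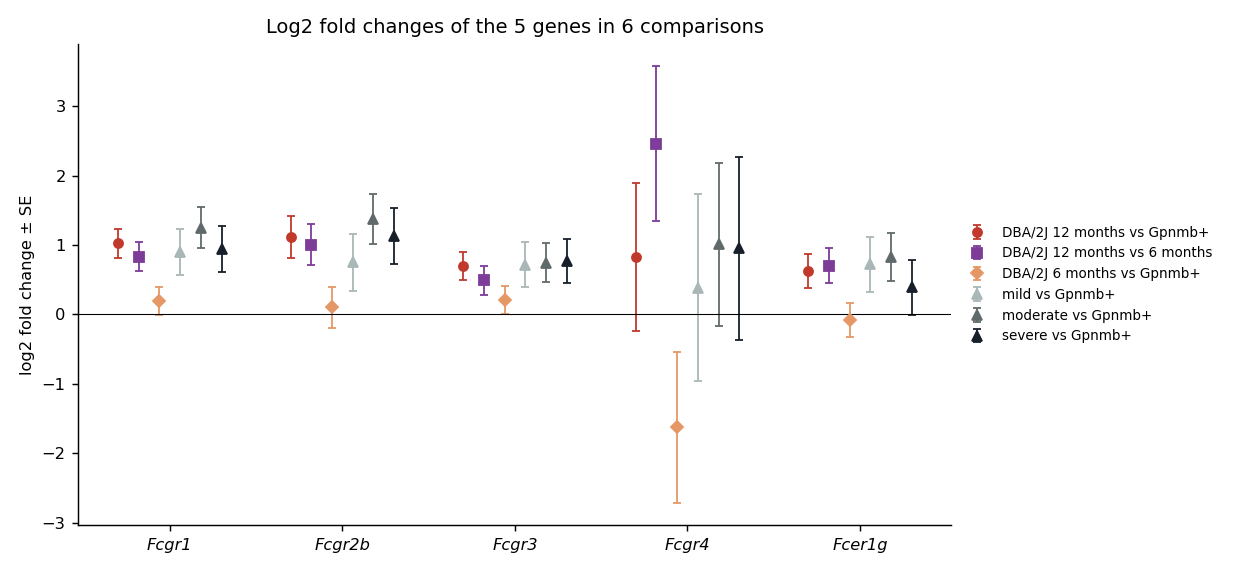
Log2 fold change with its standard error for each of the 5 genes in the comparisons of groups and of each grade with Gpnmb+. Fcgr1 and Fcgr2b lie between 0.75 and 1.38 wherever 12-month DBA/2J is on top, 6-month DBA/2J against Gpnmb+ lies near 0 for all but Fcgr4, and the bars of Fcgr4 are the widest.

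The levels of the 5 genes followed no common order over the grades. Fcgr1 had 491.7, 624.6 and 398.6 CPM of the library total in mild retinas, 736.6, 390.7, 780.7 and 383.5 CPM in moderate retinas and 392.1, 542.4 and 506.1 CPM in severe retinas. Fcgr2b had 789.1, 573.6 and 570.2 CPM in mild, 1236, 724.4, 1367 and 682.2 CPM in moderate and 806.3, 907.2 and 807.9 CPM in severe retinas. The highest values of both genes were thus in moderate retinas of animals 1 and 2, and the grades overlapped, except that all 3 severe retinas had more Fcgr2b than the 3 mild ones. Fcgr3 had 587.4 to 1103 CPM in mild, 593.2 to 1107 CPM in moderate and 650.6 to 923.2 CPM in severe retinas. Fcgr4 was at 44.53 to 131.9, 132.7 to 255.2 and 99.05 to 264.5 CPM in mild, moderate and severe retinas, so that each moderate retina was above each mild one, the nearest pair being 131.9 and 132.7 CPM. Fcer1g was at 706.2 to 3295, 769.7 to 1957 and 769.3 to 1032 CPM.

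**Figure D4:**
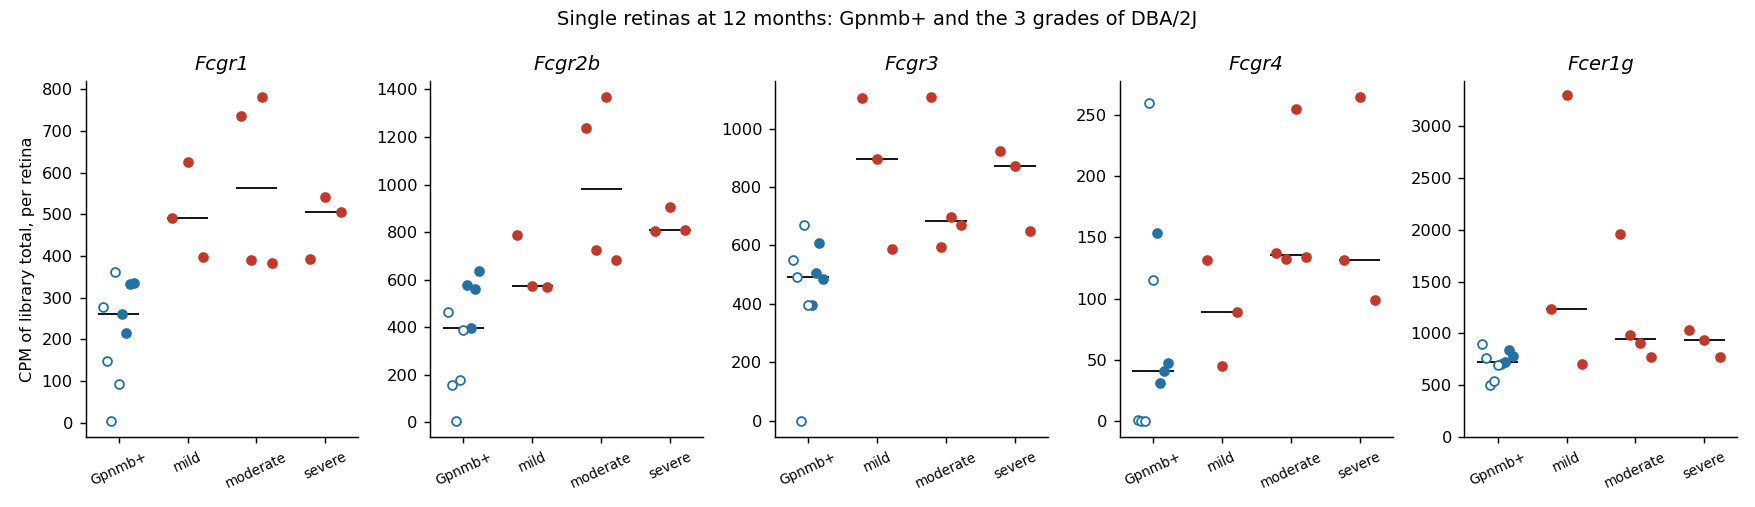
CPM of the library total of the 5 genes in single 12-month retinas (points) with the median (line), for Gpnmb+ and for mild, moderate and severe DBA/2J retinas, where open points are libraries with fewer than 10000 genes. Every DBA/2J retina lies above every Gpnmb+ retina for Fcgr1 (383.5 CPM at least, against 362.3 CPM at most), while the 3 grades overlap.

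In a fit with 1 sum for each animal and grade (17 in all), in which DBA/2J animals 1 and 5 enter with 2 sums each and no block for the animal, the log2 fold change of Fcgr1 over Gpnmb+ was 0.91 ± 0.33 in mild, 1.25 ± 0.295 in moderate and 0.94 ± 0.33 in severe retinas. Fcgr2b was at 0.75 ± 0.41, 1.38 ± 0.36 and 1.13 ± 0.41, and Fcgr3 at 0.72 ± 0.32, 0.75 ± 0.28 and 0.77 ± 0.32. Fcgr4 was at 0.39 ± 1.35, 1.01 ± 1.17 and 0.95 ± 1.32, and Fcer1g at 0.72 ± 0.39, 0.83 ± 0.345 and 0.39 ± 0.395. With edgeR's quasi-likelihood test 0 of 15959 genes were called in each grade (0%), against 596, 296 and 280 with DESeq2, which called Fcgr1 and Fcgr2b in the moderate grade only. At an unadjusted p under 0.05, 865, 1350 and 683 genes passed. There were 2 members in mild (Fcgr1 and Fcgr3), 4 in moderate (all but Fcgr4) and 3 in severe retinas (Fcgr1, Fcgr2b and Fcgr3) among the higher of these, where 2.67%, 4.75% and 3.08% of all genes were. These counts depend on the setting: with the larger retina only they were 4 in mild and 1 in moderate, with only the compared groups 0 in mild, and with each retina as a replicate 1 in severe retinas. Mild retinas came from animals 4 and 5 alone. Without animal 4 no member passed in mild retinas, the mild value of Fcer1g was -0.203 and that of Fcgr3 0.074.

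Within 12-month DBA/2J, the change per step of grade was 0.01 ± 0.27 for Fcgr1, 0.18 ± 0.28 for Fcgr2b, 0.02 ± 0.26 for Fcgr3, 0.27 ± 0.28 for Fcgr4 and -0.17 ± 0.33 for Fcer1g on the log2 scale (SE, 7 sums of 5 animals, 2 of which enter with 2 sums each). Each is smaller than its error, and none had an unadjusted p under 0.05, as 248 genes or 1.85% did. The fit called 0 genes (0%) and DESeq2 22.

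The 2 eyes of an animal were compared as a measure that the choice of genes had not used. In the 6 animals whose retinas both had at least 10000 genes, the higher retina over the lower gave a median ratio of 1.17 for Fcgr1 (1.00 to 2.00), 1.29 for Fcgr2b (1.12 to 1.89) and 1.21 for Fcgr3 (1.14 to 1.34). For Fcgr4 it was 1.71 (1.04 to 2.96), and for Fcer1g 1.16 (1.06 to 2.67). For each of the 5 genes the widest gap among these animals was between retinas of the same grade. However, only 12-month DBA/2J animals 1 and 5 had retinas of different grades, so gaps within and between grades cannot be compared. In animal 1 (moderate and severe) the ratio of Fcgr1 was 1.88. The moderate retinas of 12-month DBA/2J animal 2 had 390.7 CPM of Fcgr1 on the right and 780.7 CPM on the left. The mild retinas of animal 4 had 131.9 and 44.53 CPM of Fcgr4 and 1235 and 3295 CPM of Fcer1g, right before left. Its left library, of 1706775 counts, is the smallest of the group. In Gpnmb+ animal 2 the right retina, with the fewest genes of the series, had 4.09 CPM of Fcgr1, 6.136 CPM of Fcgr2b and 0 of Fcgr3, while its left retina had 362.3, 179.0 and 671.3 CPM of these genes.

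Right against left over 9 animals with the animal as a block, none of the 5 genes differed past the threshold. The log2 differences were -0.47 ± 0.58 for Fcgr1, -0.24 ± 0.49 for Fcgr2b, -0.23 ± 0.67 for Fcgr3, -0.05 ± 0.98 for Fcgr4 and -0.05 ± 0.27 for Fcer1g (right over left, SE), beside a median of -0.318 over all genes. The unadjusted p-values of edgeR's quasi-likelihood test were 0.43 to 0.959, and 1.58% of 9538 genes (151) were under 0.05. No gene was called (0%), against 162 with DESeq2. Without the libraries of few genes, which leaves 6 animals, all 5 differences were above 0 (0.028 to 0.271).

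Of the 10 pairs of the 5 genes, Fcgr3 and Fcer1g had the highest correlation between animals. Over 15 animals with group means removed, Pearson's r of log2 CPM was 0.83 and Spearman's rho 0.77 (permutation within groups, two-sided p = 0.00508 and 0.00751). Adjusted over the 10 pairs these were 0.0508 and 0.0751, so no pair passed the threshold. Without the 2 animals farthest from the median of Fcgr3 (12-month DBA/2J animal 4 and Gpnmb+ animal 1) r was 0.69. For Fcgr1 and Fcgr3 r was 0.55 and rho 0.52 (permutation p = 0.0473 and 0.0655, adjusted 0.236 and 0.325), with r at 0.24 without the 2 farthest animals. Fcer1g gave an r of 0.50 with the inhibitory Fcgr2b, and of 0.36 and -0.24 with the activating Fcgr1 and Fcgr4. The pairs with Fcgr4 ran from -0.35 to -0.06.

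**Figure D5:**
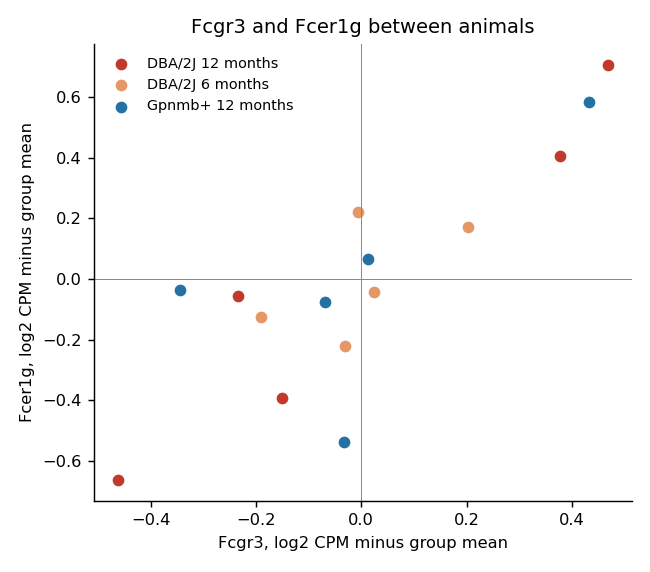
Log2 CPM of Fcer1g against that of Fcgr3 in each of 15 animals, each minus its group mean, coloured by group. The points run from low on both to high on both, with r = 0.83.

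Other genes were ranked by how closely their level followed each member over the 15 animals, group differences included, among the 7037 genes whose log2 CPM averaged 4 or more. This is a description across animals that share libraries and scaling. Closest to Fcgr1 were Olfml3 (r = 0.88), a secreted protein typical of microglia, Gm10499 (0.87) and C1qa (0.87), a chain of the complement component C1q. Closest to Fcgr2b were Gm10020 (0.94), Npc2 (0.92), which carries cholesterol in the lysosome, and Naaa (0.92), a lysosomal amidase. Closest to Fcgr3 were the lysosomal protease Ctss (0.87), Fcer1g (0.86) and the phosphatase gene Ptpn18 (0.85). For Fcgr4 they were Gtf2h5 (0.92), Plin3 (0.91) and Pla2g7 (0.87), and for Fcer1g the ribosomal protein genes Rpl37rt (0.96), Rps29 (0.95) and Rpl23a (0.93).

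Genes that carry the signal of the activating receptors were described next. Among all genes, 52.5% had a positive log2 fold change in 12-month DBA/2J against Gpnmb+ and 50.6% against 6-month DBA/2J. These shares stand beside the counts of positive genes in the lists below. Of 27 kinases and adaptors, 25 were tested. In 12-month DBA/2J against Gpnmb+ 12 of these had a positive log2 fold change, the median was 0.00, none was higher at an unadjusted p under 0.05 and 1 was lower, where 2.45% of all genes were lower. That gene was Rasgrp3, a Ras activator, with 179 ± 44.3 CPM in 12-month DBA/2J and 297 ± 76.3 CPM in Gpnmb+ microglia (log2 fold change -0.74 ± 0.26). Against 6-month DBA/2J 8 were positive, the median was -0.17, and only Pik3cg, a PI3-kinase subunit, was past the unadjusted threshold, at -0.65 ± 0.27, where 1.55% of all genes were lower.

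Of 10 phosphatases and adaptors that act after inhibitory receptors, 4 had a positive log2 fold change against Gpnmb+ (median -0.06) and 4 against 6-month DBA/2J (median -0.14). Inppl1, which encodes the phosphatase SHIP2, was past the unadjusted threshold in both, with 16.6 ± 5.4 CPM in 12-month DBA/2J, 51.1 ± 15.5 CPM in 6-month DBA/2J and 37.1 ± 17.8 CPM in Gpnmb+ microglia. Among 15 tested receptors with inhibitory motifs other than Fcgr2b, 11 were positive against Gpnmb+ (median 0.28), and Cd33 was lower, with 201 ± 50.2 CPM in 12-month DBA/2J and 299 ± 106 CPM in Gpnmb+ microglia. Sirpa, the receptor of CD47, had 737 ± 306 CPM in 12-month and 1420 ± 174 CPM in 6-month DBA/2J (-0.95 ± 0.25). Sirpa was also higher in 6-month DBA/2J than in Gpnmb+ at the unadjusted threshold, and not past it in 12-month DBA/2J against Gpnmb+. No gene of these lists was called after adjustment.

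Adaptors and receptors that signal through activation motifs as the gamma chain does were represented by 8 tested genes of 16. Of these 5 were positive against Gpnmb+ (median 0.14) and 6 against 6-month DBA/2J (median 0.34). Trem2, a lipid-sensing receptor, had 1610 ± 410 CPM in 12-month DBA/2J, 1200 ± 119 CPM in 6-month DBA/2J and 1240 ± 188 CPM in Gpnmb+ microglia, and its adaptor Tyrobp had 907 ± 341, 568 ± 105 and 602 ± 247 CPM in the same groups. Their log2 fold changes were 0.38 ± 0.18 and 0.59 ± 0.29 against Gpnmb+, of which that of Trem2 was past the unadjusted threshold, and 0.42 ± 0.18 and 0.67 ± 0.29 against 6-month DBA/2J, where both were. Clec7a, a receptor for fungal glucans, was at -1.14 ± 0.50 against Gpnmb+, with 65.1 ± 47.1 CPM in 12-month DBA/2J and 144 ± 41.8 CPM in Gpnmb+ microglia. In 6-month DBA/2J it had 76.4 ± 36.6 CPM, near the 12-month level (-0.23 ± 0.50).

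Of 18 genes of the NADPH oxidase and of actin remodelling used in engulfment, 7 were positive against Gpnmb+ (median -0.08) and 9 against 6-month DBA/2J (median -0.03). Rac1, a GTPase of membrane ruffling, had 62.3 ± 38.1 CPM in 12-month DBA/2J, 265 ± 128 CPM in 6-month DBA/2J and 141 ± 90.5 CPM in Gpnmb+ microglia. Its log2 fold change was -1.18 ± 0.50 against Gpnmb+ and -2.09 ± 0.51 against 6-month DBA/2J. Rac2, the form typical of blood cells, was at 0.66 ± 0.26 against 6-month DBA/2J, with 256 ± 67.5 CPM in 12-month and 162 ± 36.4 CPM in 6-month DBA/2J.

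Among 19 tested genes of the interferon-gamma pathway and of factors known to act on Fc gamma receptor genes, 11 were positive against Gpnmb+ (median 0.11) and 10 against 6-month DBA/2J (median 0.03). Il10ra, a chain of the interleukin-10 receptor, had 272 ± 138 CPM in 12-month DBA/2J, 507 ± 87.8 CPM in 6-month DBA/2J and 450 ± 142 CPM in Gpnmb+ microglia, lower at the unadjusted threshold in both comparisons. Spi1, which encodes the macrophage factor PU.1, had 103 ± 18.4 CPM in 12-month and 198 ± 93.4 CPM in 6-month DBA/2J (-0.94 ± 0.39), and Tgfbr1 had 384 ± 53.7 and 588 ± 111 CPM (-0.61 ± 0.18). Neither was past the unadjusted threshold against Gpnmb+, where Tgfbr1 had 497 ± 50.3 CPM (-0.37 ± 0.18). C5ar1, the receptor of the complement fragment C5a, was at 0.87 ± 0.46 against Gpnmb+ with 168 ± 60.6 CPM in 12-month DBA/2J and 91.5 ± 54.5 CPM in Gpnmb+ microglia.

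Of 10 immunoglobulin transcripts 1 was tested. This was Ighm, the heavy chain of IgM and not of the IgG that these receptors bind. No IgG heavy chain was tested. Ighm had 407 ± 90 CPM in 12-month DBA/2J, 400 ± 68 CPM in 6-month DBA/2J and 382 ± 90.6 CPM in Gpnmb+ microglia. Another 7 of the 10, among them the IgG chain Ighg1 and the light chain Igkc, had no count in any animal. Of 14 other receptors of immunoglobulin or related genes 4 were tested and none was past the unadjusted threshold. Fcgrt, which recycles IgG inside cells, had 181 ± 73.2 CPM in 12-month DBA/2J, 121 ± 20.6 CPM in 6-month DBA/2J and 117 ± 65.7 CPM in Gpnmb+ microglia.

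Genes near the members were set beside them. Within 200 kb of the 4 genes on chromosome 1, 21 other genes were tested, with 10 positive in 12-month DBA/2J against Gpnmb+ and a median of -0.10, and Nectin4 was lower at -1.78 ± 0.58. Around Fcgr1 on chromosome 3, 18 were tested, with 12 positive and a median of 0.34, and none was past the unadjusted threshold.

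Cells other than microglia that carry these receptors were looked for by their markers. Of 10 markers of Ly6c-low monocytes 3 were tested and 1 (Cd300e) was at 0 throughout, with Ace at most 3.58 CPM and Treml4 at most 1.57 CPM in any animal. Their sum was 60.3 to 187 CPM in 12-month DBA/2J, 47.5 to 105 CPM in 6-month DBA/2J and 41.4 to 147 CPM in Gpnmb+ animals. In this list Eno3 had 36.5 to 64.5, 23.7 to 47.7 and 0.601 to 108 CPM in the same order. Gngt2 had 23.4 to 97.4, 17.5 to 57.5 and 22.4 to 87.9 CPM, and Nr4a1 at most 17.9, 17.8 and 59.9 CPM. Of 8 markers of Ly6c-high monocytes Chil3 and F10 were at 0 throughout, Ly6c2 was at 0 in all DBA/2J animals, and the sum was 10.7 to 47.7, 13.3 to 40.9 and 1.54 to 27.6 CPM in the same order. All 8 markers of border-associated macrophages were detected, 6 of them tested, with sums of 79.2 to 317 CPM in 12-month DBA/2J, 57.6 to 193 CPM in 6-month DBA/2J and 8.36 to 202 CPM in Gpnmb+ animals. In this last list Stab1 alone had 31.5 to 174, 55.5 to 102 and 8.27 to 145 CPM in the same order. The sums of the 3 lists thus reached their highest values in 12-month DBA/2J animals, and the groups overlapped. Their part in the levels of the 5 genes was not tested.

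Of 9 neutrophil markers S100a8, S100a9, Retnlg and Mmp9 were at 0 in all 15 animals, and the sum (196 to 468, 377 to 519 and 146 to 540 CPM in 12-month DBA/2J, 6-month DBA/2J and Gpnmb+ animals) was nearly all Csf3r. All 6 markers of mast cells and basophils, which pair the gamma chain with the IgE receptor, were at 0. The 7 NK cell markers summed to at most 4.37 CPM in any animal. The sum of the B cell markers, nearly all Cd79b, was 26.8 to 49.7, 27.6 to 44.8 and 0 to 65.9 CPM. Rod markers, a trace of retinal neurons, summed to 296 to 2200 CPM in 12-month DBA/2J, 206 to 1870 CPM in 6-month DBA/2J and 311 to 7900 CPM in Gpnmb+ animals. The highest sum was that of Gpnmb+ animal 2, and the next Gpnmb+ animal had 1270 CPM. Animal 2 also had the ratio of activating to inhibitory transcripts of 7.46, and a link was not tested. Markers of Muller glia summed to 282 to 421, 269 to 411 and 144 to 721 CPM in the same order. Glul alone had 219 to 366, 207 to 335 and 138 to 489 CPM of these, while Rlbp1 and Dkk3 had a median of 0 in each group.

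The promoters are shown because 4 of the 5 genes sit on 1 stretch of chromosome 1 and the means of all 5 were highest in 12-month DBA/2J. All 5 symbols matched the RefSeq promoter table (GRCm38.p6), Fcgr3 with 2 starts 9 bases apart, of which the first is printed. Each line gives the 120 bases before the RefSeq start, 5′ to 3′ on the gene's strand. Capitals mark matches on either strand to GAGGAA, the core bound by PU.1 (read as TTCCTC on the other strand). The motif was chosen with the sequences in view.
Fcgr1 (chr3:96293970-96294089, minus): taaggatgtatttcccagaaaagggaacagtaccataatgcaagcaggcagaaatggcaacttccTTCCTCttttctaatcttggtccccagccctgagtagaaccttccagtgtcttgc
Fcgr2b (chr1:170976072-170976191, minus): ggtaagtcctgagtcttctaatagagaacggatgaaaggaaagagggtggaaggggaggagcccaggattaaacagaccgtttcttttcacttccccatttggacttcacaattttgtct
Fcgr3 (chr1:171059404-171059523, minus): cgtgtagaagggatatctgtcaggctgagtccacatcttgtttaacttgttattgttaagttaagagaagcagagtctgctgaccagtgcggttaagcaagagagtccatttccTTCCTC
Fcgr4 (chr1:171018806-171018925, plus): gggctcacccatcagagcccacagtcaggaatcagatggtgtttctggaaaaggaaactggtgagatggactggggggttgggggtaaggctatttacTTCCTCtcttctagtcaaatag
Fcer1g (chr1:171234350-171234469, minus): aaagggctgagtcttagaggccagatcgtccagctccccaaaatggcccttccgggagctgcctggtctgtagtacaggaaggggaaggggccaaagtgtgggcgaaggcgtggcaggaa

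The 3 activating receptors each hold 1 match to GAGGAA in this window, on the other strand, at -55 to -50 in Fcgr1, -6 to -1 in Fcgr3 and -22 to -17 in Fcgr4 counted from the start. The windows of Fcgr2b and Fcer1g hold none, which says only that these letters are not in them. Of 27025 promoters, 11.6% hold GAGGAA in the same 120 bases on either strand. The matches are a description of the sequence only.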

How the data were processed

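RNA was sequenced from 24 retinas of 15 animals. Expected counts and TPM per gene were deposited for each retina, per the file headers, and the submitters' processing notes name Salmon 1.4.0, R 4.0.3, DESeq2 1.30.1 and mm10, while the role of each tool is not given in the sources used here. Another deposited table with 24 such columns was left out. The deposited IDs (47729, of which 47224 matched a symbol in GENCODE vM21) were kept as given.

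Expected counts were rounded and summed over the retinas of an animal. They were filtered (filterByExpr, minimum count 10, minimum total 15), scaled by TMM and tested with edgeR 4.0.16 in R 4.3.3 (quasi-likelihood test, Benjamini-Hochberg over all genes, threshold 0.05), 3 groups in 1 fit. SE is the log2 fold change over the square root of F. On simulated data the fit gave the right direction for nearly all changed genes but called only a minority of them after adjustment, and fewest among the smallest changes. DESeq2 1.42.0 and other settings were alternatives. CPM per animal is TMM-scaled, CPM per retina is not. P-values of the group fits set a difference against the spread between animals, and in the grade fits 2 animals enter with 2 sums each. The eye fit sets the difference between eyes against its variation over animals, and p-values of correlations come from permutation within groups. Limits from 0 counts (3 counts of the total) cover counting error only.

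The members, gene lists and tests were chosen with earlier results of these data known. Of each list, up to 3 tested genes with the smallest p against Gpnmb+ were to be named, and those past the unadjusted threshold were added after their values were seen. Some of the genes this names are not reported here. Animals of equal number in different groups had a low correlation of deviations from the group mean (-0.0462 to 0.0884). Of the 5 12-month DBA/2J animals 3 correlated most with the 6-month animal of their own number, and 1 with the Gpnmb+ animal of theirs. Of the 6-month animals 1 did so with Gpnmb+. These values cannot tell whether equal numbers mark a shared day or litter, which the labels do not give. No 2 retinas of a group were copies, since chi-square over its degrees of freedom was at least 65 in all 91 pairs.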

Additional observations from a re-analysis of the deposited data

Results flagged for a closer look

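In TMM-scaled CPM, Fcgr1 in 12-month DBA/2J animal 5 stood apart from the rest of its group, at 366.7 CPM, while the other 4 animals had 526.7 to 579.4 CPM. Its gap to the nearest animal was 0.752 of the range of the group, where 0.71 is the limit for 5 animals. Of 15 sets of 5 animals looked at in this way (5 genes in 3 groups) it was the only one past the limit, and chance passes it in about 1 of 20. It did not stand apart in TPM, where animal 5 had 355.9 and animal 4 had 358.4, nor by retina, where its 398.6 and 383.5 CPM lay beside 392.1 CPM in a retina of animal 1 and 390.7 CPM in one of animal 2. In TMM-scaled CPM animal 5 was also the lowest of its group for the other 4 genes, but in TPM the lowest was animal 4 for Fcgr2b (540.7) and Fcgr4 (96.17) and animal 2 for Fcgr3 (740.1). Without it the log2 fold change of Fcgr1 against Gpnmb+ was 1.149.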

How the results depend on the processing

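With DESeq2 in place of edgeR 108 genes were called against Gpnmb+, 60 against 6-month DBA/2J, 57 in 6-month DBA/2J against Gpnmb+, 596, 296 and 280 in mild, moderate and severe retinas, 22 over the grades and 162 between eyes. It called 2 members, Fcgr1 and Fcgr2b, at log2 fold changes of 0.956 and 1.074 against Gpnmb+, 0.83 and 1.002 against 6-month DBA/2J and 1.266 and 1.441 in moderate retinas. With no filter on low counts 2 genes were called against 6-month DBA/2J, 31, 33 and 10 in the grades and 6 over the grades, with 1 member (Fcgr2b, 1.344) in moderate retinas. With each retina as a replicate 1 gene was called in moderate retinas. The replicate number as a block, though no label says that the numbers pair the animals, gave 4 genes in moderate and 1 in severe retinas. It was not run over the grades.

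Some signs turned. Over the grades Fcgr1 was at -0.007 with DESeq2 and with RLE scaling, -0.015 by retina and -0.07 with the larger retina only. Fcgr3 was at -0.025 by retina, -0.018 without retinas of low total and -0.21 with the larger retina, and Fcgr4 at -0.143 with that setting. Between eyes DESeq2 gave 0.003 for Fcgr4 and 0.013 for Fcer1g. Without the libraries of few genes the eyes differed by 0.028 (Fcgr1), 0.059 (Fcgr2b), 0.223 (Fcgr3), 0.271 (Fcgr4) and 0.06 (Fcer1g), and Fcgr2b in 6-month DBA/2J against Gpnmb+ was at -0.239. Without the 2 farthest animals r was 0.037 for Fcgr1 with Fcgr4 and 0.296 for Fcgr2b with Fcgr4. The cause was not tested.

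Leaving out 1 animal in turn gave 0 to 1 genes against Gpnmb+ (1 without 12-month DBA/2J animal 5), 0 to 2 in mild and 0 to 4 in moderate retinas, and no member. In 6-month DBA/2J against Gpnmb+ Fcgr2b ranged from -0.116 to 0.267 and Fcer1g from -0.192 to 0.095, and in mild retinas Fcer1g from -0.203 (without 12-month DBA/2J animal 4) to 1.233. Fcgr4 ranged from 0.513 to 1.444 against Gpnmb+ (lowest without Gpnmb+ animal 1, highest without Gpnmb+ animal 2) and from 2.139 to 3.173 against 6-month DBA/2J. Over the grades the ranges were -0.199 to 0.078 (Fcgr1), -0.045 to 0.279 (Fcgr2b), -0.197 to 0.27 (Fcgr3) and -0.496 to 0.12 (Fcer1g). Between eyes they were -0.419 to 0.102 (Fcgr2b), -0.35 to 0.121 (Fcgr3), -0.321 to 0.318 (Fcgr4) and -0.184 to 0.077 (Fcer1g).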
